A study of Mus musculus with 4 samples.

Results

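The keratin and epidermal differentiation clusters are 3 stretches of the mouse genome in which genes for the proteins of skin and hair lie side by side. They were taken by position in mm9, the build of the array files: chr11:99200000-100080000 holds the type I keratins and the keratin-associated proteins, chr15:101200000-101900000 the type II keratins, and chr3:91800000-93900000 the epidermal differentiation complex. The rule uses positions only, though the clusters were chosen with earlier results of these data known. Of the array's 174638 genomic probes, 1142 lay in these stretches, 411 in the type I keratin cluster, 264 in the type II keratin cluster and 467 in the epidermal differentiation complex. Joined where the gap between neighbouring probes was at most 1000 bp, they formed 152 of the array's 22125 regions, namely 56, 33 and 63. One of the 56 regions was cut by the border of its interval and had 2 probes inside it.

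The study profiled DNA methylation in 3T3-L1 cells, which are mouse embryo fibroblasts that turn into fat cells under hormones. Each of its 4 two-colour arrays compared DNA pulled down with an antibody against 5-methylcytosine (IP, Cy5) with the input DNA of the same cells (Cy3). The groups were wild type 3T3-L1 cells (control) and 1 line stably transfected with shRNA8, which targets the long non-coding RNA slincRAD. Each line was sampled at day -2, ahead of induction, and at day +2 of induction by a medium that held dexamethasone (1 µM), insulin (167 nM) and 3-isobutyl-1-methylxanthine (0.5 mM). Each group was 1 array, so no difference between a pair of arrays has a replicate check. The only test made was a model of all 4 arrays with 1 term for line and 1 for day, in which the other factor stands in for replication. The shRNA8 cells were harvested after several passages, per the labels, and the control was an untransfected line rather than one carrying another shRNA. The input label of the shRNA8 day +2 array names day +2 but calls the cells not yet induced, and the array was taken as day +2. All 4 arrays were on 1 slide, with the shRNA8 samples in positions 1 and 2 and the control samples in positions 3 and 4. Line and slide position therefore cannot be told apart. The arrays measure DNA, so neither the identity of the cells nor the level of slincRAD was checked here.

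Keratins are the intermediate filament proteins of epithelial cells and pair a type I with a type II chain. Keratin-associated proteins cross-link keratin filaments in the hair shaft, and the epidermal differentiation complex encodes proteins of the cornified envelope, among them filaggrin, loricrin, involucrin and the late cornified envelope and small proline-rich proteins. They are not typical products of fibroblasts or fat cells. In vertebrate DNA most methylation is on the cytosine of CG dinucleotides (CpG), and the antibody pulls down more of a fragment the more methylated CpGs it carries, so a fragment with few CpGs gives a weak IP signal at any methylation state.

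The promoters of these gene families, as RefSeq gives them on GRCm38.p6, held few CpGs. This build is not that of the arrays, so the sequences are not placed on array regions and no gene name is given to a region. CpGs were counted in the 250 bases before each start. A promoter sequence was given for 20 of 27 type I keratin genes, 1 of them with an additional start, and the 21 promoters held 1 to 8 CpGs with a median of 4. For keratin-associated proteins 21 of 23 genes had a promoter, with a median of 1 CpG and none in 8 of them (38.1%). At the type II locus 16 of 27 genes had a promoter, with a median of 3.5 CpGs. Only Krt7 (16 CpGs) and Krt18 (12 CpGs), both keratins of simple epithelia, the second a type I keratin whose gene lies at the type II locus, reached 10 CpGs in any of the 4 families. In the epidermal differentiation complex, 45 of 53 genes had a promoter, with a median of 1 CpG and none in 18 of them (40.0%), among these Ivl, the gene of involucrin. Over all 32851 promoters of the table the median was 6 CpGs, 7.87% had none and 37.8% had 10 or more. The motif TATAAA, on either strand, stood in the same windows of 20 of 21 keratin-associated protein promoters (95.2%), 12 of 21 type I keratin promoters (57.1%), 20 of 45 in the epidermal differentiation complex (44.4%) and 5 of 16 at the type II locus (31.2%), against 12.4% of all promoters. A match is a description of letters and no evidence that a factor binds. For each family, a promoter with the most and one with the fewest CpGs are printed here to give the range of CpG content that the families span. Where several tied (3 keratin-associated protein promoters at 4 CpGs and 8 at none, 2 type I promoters at 1 and 18 of the epidermal differentiation complex at none), 1 of them was taken. Each is written 5′ to 3′ on the gene's own strand and ends at the last base before the start, with capitals marking CG and TATAAA.
Krt39 (chr11:99521339-99521588, minus strand, GRCm38.p6, 8 CpG): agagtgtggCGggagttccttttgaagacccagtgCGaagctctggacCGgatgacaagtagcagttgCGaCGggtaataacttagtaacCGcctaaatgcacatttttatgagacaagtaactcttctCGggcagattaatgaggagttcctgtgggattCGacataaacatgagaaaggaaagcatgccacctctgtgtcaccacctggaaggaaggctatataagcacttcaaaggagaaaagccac
Krt31 (chr11:100050552-100050801, minus strand, GRCm38.p6, 1 CpG): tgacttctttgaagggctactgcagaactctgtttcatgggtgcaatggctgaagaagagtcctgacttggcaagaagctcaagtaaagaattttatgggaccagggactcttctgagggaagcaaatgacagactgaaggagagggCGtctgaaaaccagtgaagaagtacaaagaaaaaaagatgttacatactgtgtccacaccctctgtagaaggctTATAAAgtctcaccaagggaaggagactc
Krtap1-5 (chr11:99581017-99581266, minus strand, GRCm38.p6, 4 CpG): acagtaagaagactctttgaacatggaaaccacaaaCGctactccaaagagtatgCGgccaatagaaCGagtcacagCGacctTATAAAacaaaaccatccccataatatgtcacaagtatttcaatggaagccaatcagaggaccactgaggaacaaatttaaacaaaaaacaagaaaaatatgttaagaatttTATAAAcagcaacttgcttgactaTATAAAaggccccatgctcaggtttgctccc
Krtap3-2 (chr11:99556854-99557103, minus strand, GRCm38.p6, 0 CpG): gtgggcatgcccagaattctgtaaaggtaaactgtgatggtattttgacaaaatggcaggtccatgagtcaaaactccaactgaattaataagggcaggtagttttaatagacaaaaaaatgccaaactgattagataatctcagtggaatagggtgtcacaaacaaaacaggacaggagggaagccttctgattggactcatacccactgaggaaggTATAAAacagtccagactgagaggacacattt
Krt7 (chr15:101412153-101412402, plus strand, GRCm38.p6, 16 CpG): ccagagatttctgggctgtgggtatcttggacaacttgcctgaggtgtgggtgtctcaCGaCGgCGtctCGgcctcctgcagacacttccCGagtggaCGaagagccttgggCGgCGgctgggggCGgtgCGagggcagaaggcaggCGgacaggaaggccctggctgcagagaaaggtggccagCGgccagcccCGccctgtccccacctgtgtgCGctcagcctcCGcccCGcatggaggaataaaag
Krt90 (chr15:101562951-101563200, minus strand, GRCm38.p6, 1 CpG): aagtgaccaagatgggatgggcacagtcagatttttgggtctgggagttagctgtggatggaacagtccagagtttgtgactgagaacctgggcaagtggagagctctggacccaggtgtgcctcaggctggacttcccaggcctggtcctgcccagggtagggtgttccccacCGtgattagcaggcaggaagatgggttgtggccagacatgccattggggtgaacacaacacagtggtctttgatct
Lce1c (chr3:92678997-92679246, plus strand, GRCm38.p6, 4 CpG): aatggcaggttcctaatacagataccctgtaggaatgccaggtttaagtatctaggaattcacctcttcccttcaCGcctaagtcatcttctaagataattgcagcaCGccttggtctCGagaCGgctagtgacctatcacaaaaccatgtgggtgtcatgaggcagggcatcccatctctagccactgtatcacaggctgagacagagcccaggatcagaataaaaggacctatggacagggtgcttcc
Crnn (chr3:93144539-93144788, plus strand, GRCm38.p6, 0 CpG): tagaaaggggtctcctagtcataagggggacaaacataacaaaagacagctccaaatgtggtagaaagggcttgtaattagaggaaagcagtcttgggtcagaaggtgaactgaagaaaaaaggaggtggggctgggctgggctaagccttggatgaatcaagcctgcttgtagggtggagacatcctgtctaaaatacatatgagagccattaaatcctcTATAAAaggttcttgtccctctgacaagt

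In the sequences above, Krtap3-2 and Crnn (cornulin) carry no CG at all, and their only capitals are TATAAA, beginning 32 and 29 bases before the start. Krtap1-5 has TATAAA 31 bases before the start and Krt31, a hair keratin, 29 bases before it. Krt39, another hair keratin, has the most CpGs among type I keratins and no exact TATAAA, though the similar run tatataa stands near the end of its printed sequence.

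The clusters were covered as densely as the rest of the array, with a median of 8 probes per region and median region widths of 1614.5 bp, 1645 bp and 1622 bp for type I, type II and the epidermal differentiation complex. Their probes differed in length. The array's probes were 45 to 60 bases long, and the shortest class, 45 bases, made up 38.4% of probes in the type I cluster, 61.0% in the type II cluster and 16.3% in the epidermal differentiation complex, against 50.01% elsewhere. Probes of 60 bases made up 18.0%, 4.92% and 31.0% of the 3 clusters and 13.1% of the other probes.

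The IP signal fell into the same order of clusters in all 4 arrays, with the type II keratin cluster highest and the epidermal differentiation complex lowest. Signals are given in the array scanner's intensity units after subtraction of the local background. In the type II cluster the median IP signal was 64.9 in control day -2, 62.5 in control day +2, 74.8 in shRNA8 day -2 and 74.8 in shRNA8 day +2. In the type I cluster it was 33.9, 33.7, 36.7 and 38.5 in that order of arrays. In the epidermal differentiation complex it was 15.2, 15.3, 16.9 and 17.3. The 3 sets of medians were apart, though the probes of the clusters overlapped widely, with quartiles in control day -2 of 17.1 and 236 for type II, 6.80 and 162 for type I and 2.12 and 56.4 for the epidermal differentiation complex. The probes outside the clusters, with medians of 49.2, 49.04, 56.2 and 56.6, lay between type I and type II in every array. Both shRNA8 arrays were brighter than both control arrays in every cluster and outside them.

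**Figure D1:**
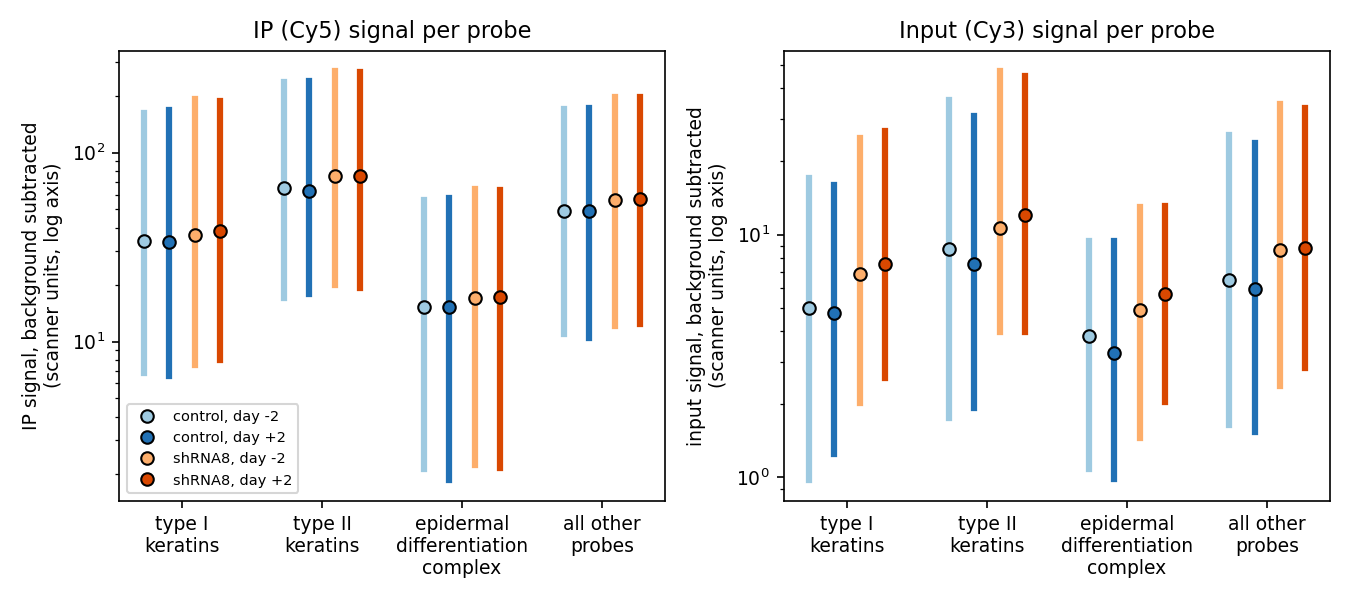
Background-subtracted signal per probe (scanner units, log axes) in the IP channel (left) and the input channel (right) for each cluster and for all other probes, with circles for the median and bars for the interquartile range over probes, 1 colour per array. The type II cluster is the brightest and the epidermal differentiation complex the dimmest in both channels of each array.

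Many probes of the epidermal differentiation complex gave no IP signal above background. In 115 of its 467 probes (24.6%) the IP signal was above background in none of the 4 arrays, against 60 of 411 (14.6%) in the type I cluster, 18 of 264 (6.82%) in the type II cluster and 10.6% of the other probes. The input channel showed the same order of clusters. The median net input was 3.82, 3.27, 4.89 and 5.68 in the epidermal differentiation complex, 4.97, 4.74, 6.88 and 7.56 in the type I cluster, and 8.75, 7.57, 10.7 and 12.1 in the type II cluster. These input medians are low beside the background subtracted from them, which was 22 to 26 units per array at the median.

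Probe length moved with these levels. In control day -2, the median IP signal in the type I cluster was 188 for probes of 45 bases, 24.1 for 46 to 49 bases, 28.5 for 50 to 54 bases, 11.5 for 55 to 59 bases and 1.3 for 60 bases. The other probes of that array gave 120, 41.4, 21.6, 12.2 and 2.1 in the same classes. Among probes of 45 bases the order of clusters changed. Their medians in the 4 arrays were 188, 185, 211 and 208 in the type I cluster, 157, 159, 178 and 185 in the type II cluster, 115, 111, 136 and 124 in the epidermal differentiation complex, and 120, 122, 138 and 140 elsewhere. The type I cluster was thus the brightest and the epidermal differentiation complex close to the rest of the array in this class.

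**Figure D2:**
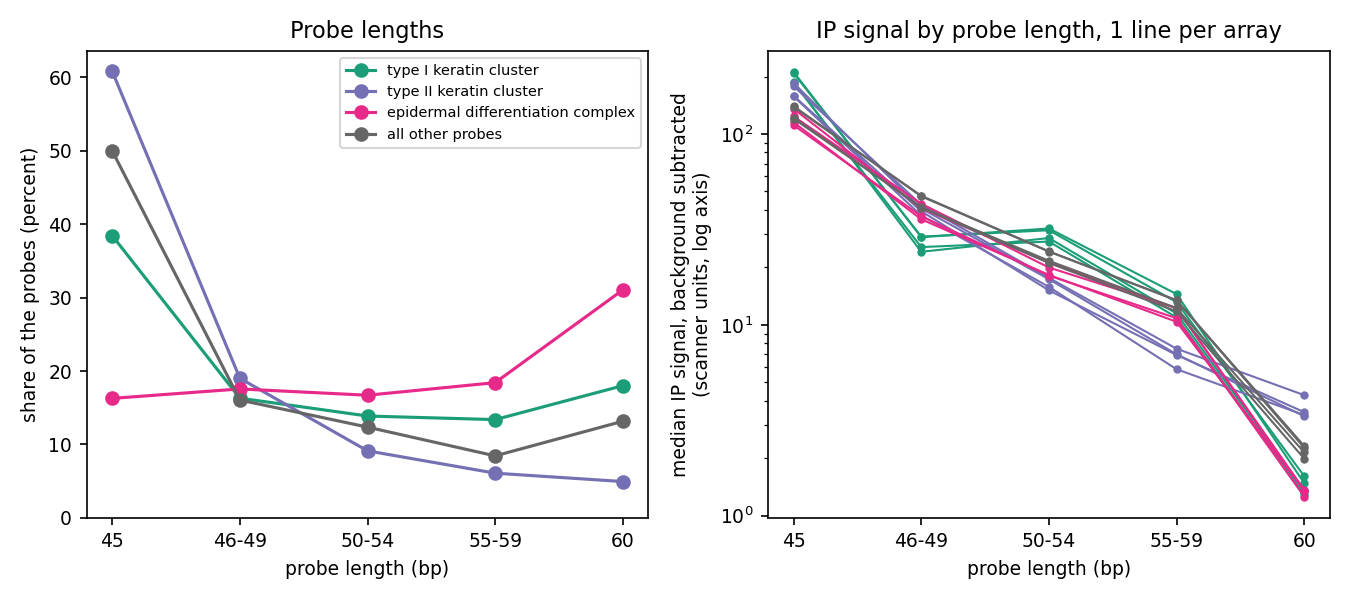
Left, share of probes (percent) in each probe length class (bp) for each cluster and for all other probes. Right, their median background-subtracted IP signal (scanner units, log axis) by length class, 1 line per array; each line is far lower at 60 bases than at 45 bases.

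Ranked among all probes of the array, the median IP signal of the epidermal differentiation complex stood at percentiles 29.5 to 30.0 over the 4 arrays, and among probes of like length at percentiles 45.6 to 46.6. The type I cluster moved from percentiles 41.9 to 42.9 to percentiles 51.2 to 53.0, and the type II cluster from 54.9 to 55.8 to 49.6 to 51.5. Set against probes of like length, all 3 clusters thus lay near the middle of the array. Whether base composition contributes was not tested, since the files used here hold no probe sequences.

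The log2 ratio of IP to input was then compared over probes without spot flags whose input was above background in all 4 arrays. These were 203 probes (49.4%) in the type I cluster, 157 (59.5%) in the type II cluster, 180 (38.5%) in the epidermal differentiation complex and 54.5% elsewhere. Each array was set to a median of 0 and quantile normalized, so a ratio of 0 is the middle of that array. The median log2 ratio was 0.18, 0.14, 0.16 and 0.07 in the type I cluster, 0.23, 0.22, 0.24 and 0.19 in the type II cluster, and 0.09, 0.16, -0.02 and -0.04 in the epidermal differentiation complex. Over these probes both keratin clusters were above the middle of the array in 4 of 4 arrays, and the epidermal differentiation complex in both control arrays only. Ranked among kept probes of like length, the complex stood at percentiles 53.7, 57.7, 50.8 and 50.4, at or above the middle in all 4 arrays. The level of 2 clusters depended on the probes used. Over all probes, before centring, the ratio of the type I cluster was 0.21, 0.09, 0.09 and -0.01, against 0.14, 0.14, 0.13 and 0.11 for the other probes, so type I was below the rest of the array in 3 of 4 arrays. That of the epidermal differentiation complex was -0.53, -0.43, -0.51 and -0.70, below the rest in all 4, and that of the type II cluster 0.51, 0.53, 0.45 and 0.50, above it in all 4.

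Regions with at least 3 such probes numbered 38 in the type I cluster, 29 in the type II cluster and 28 in the epidermal differentiation complex, 95 of 17452 on the array, and held 434 probes. The mean log2 ratio of a region over the 4 arrays ran from -1.93 to 1.47 with a median of 0.14 in the type I cluster, from -2.01 to 1.16 with a median of 0.19 in the type II cluster, and from -2.82 to 1.20 with a median of -0.44 in the epidermal differentiation complex. The median of all 17452 regions was -0.20. Regions above 0 were 20 of 38, 17 of 29 and 8 of 28, against 6883 of 17452.

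**Figure D3:**
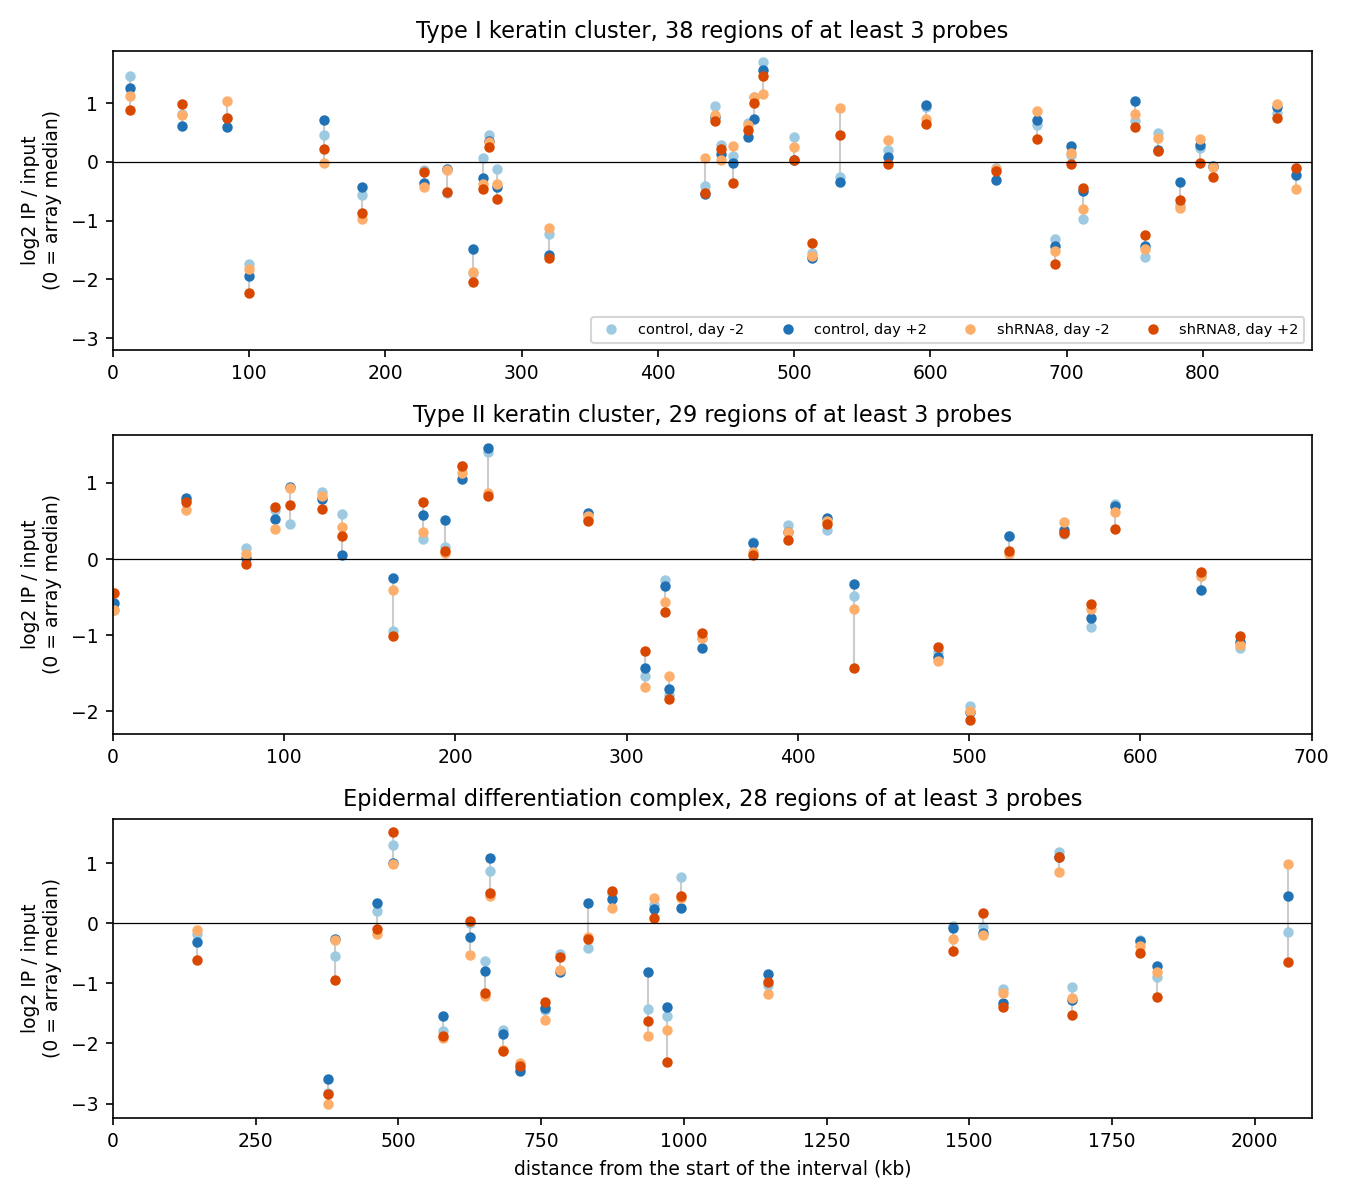
Mean normalized log2 ratio of each tested region (points, 1 colour per array, joined by a grey line) against its distance from the start of the interval, in kb, 1 panel per cluster. Regions of high and low ratio alternate along each cluster, and the 4 arrays lie close together at most regions.

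Regions kept their level from array to array far more than they differed between arrays. The range of a region's ratio over the 4 arrays had a median of 0.41, 0.24 and 0.44 in the 3 clusters and 0.33 over all regions. It stayed under 0.6 in 34 of 38, 26 of 29 and 22 of 28 regions (89.5%, 89.7% and 78.6%), against 87.0% of all regions. For the IP signal alone, the rank correlation of region medians between any 2 arrays (Spearman's rho, over 56, 33 and 63 regions sharing 1 probe design) was 0.991 to 0.997. For the input signal it was 0.645 to 0.929.

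The regions with the highest and lowest mean ratios are given as the ends of each cluster. In the type I cluster, chr11:99676492-99677691 was highest, at 1.70 in control day -2, 1.56 in control day +2, 1.16 in shRNA8 day -2 and 1.47 in shRNA8 day +2, followed by chr11:99211911-99213620 at 1.46, 1.25, 1.13 and 0.89. The lowest regions were chr11:99298970-99300443 at -1.74, -1.94, -1.83 and -2.23, and chr11:99464123-99464588 at -1.89, -1.47, -1.87 and -2.04. The second value rests on 1 of 3 probes whose IP signal was above background in no array, and without that probe the region was at -0.09, 0.68, 0.19 and -0.31. The first of the low regions had no such probe but held a probe of 52 bases whose input, at 447, 437, 471 and 448, exceeded its IP signal of 119, 93.6, 105 and 123 in every array.

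In the type II cluster the highest regions were chr15:101403847-101404302, at 1.22, 1.06, 1.13 and 1.22, and chr15:101418566-101419215, at 1.41, 1.45, 0.87 and 0.82. The lowest were chr15:101699817-101701324, at -1.92, -2.00, -2.00 and -2.12, and chr15:101524252-101525713, at -1.78, -1.71, -1.53 and -1.83. Both low values include probes whose IP signal was above background in no array. Without 1 such probe of 5 the first was at -1.16, -1.23, -1.26 and -1.35, and without 2 of 6 the second was at -0.44, -0.42, -0.11 and -0.51. Of these high regions, chr15:101418566-101419215 was lower in both shRNA8 arrays than in both control arrays, as were both high regions of the type I cluster. The high regions listed for the epidermal differentiation complex were not. The limma adjusted p for the line was 0.16 at the type II region and 0.508 and 0.408 at those of type I. In these regions the input differed by 0.17 to 0.79 and the IP channel by -0.13 to 0.09. How many of all regions share this pattern was not counted. The highest region median of the IP signal in the 3 clusters was at chr15:101276906-101278470, at 398, 388, 451 and 445, and its 8 probes were all 45 bases long. Single probes were brighter elsewhere, up to 4580 in control day -2 at chr11:99464123-99465207 in the type I cluster.

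Within the epidermal differentiation complex the highest ratios were at chr3:92289783-92291092, at 1.31, 1.01, 0.99 and 1.51, and at chr3:93456409-93457722, at 1.19, 1.10, 0.85 and 1.10. The lowest were at chr3:92177245-92177908, at -2.83, -2.60, -3.01 and -2.83, and at chr3:92512907-92513373, at -2.42, -2.45, -2.32 and -2.37. The first of these held 1 probe of 3 with IP above background in no array, and without it was at -2.50, -2.37, -2.73 and -2.33. Its probes differed widely: in control day -2 the kept ones gave an IP signal of 1.3, 1.9 and 93.3 beside inputs of 16.1, 5.2 and 14.6. The lowest region median of the IP signal in the 3 clusters was at chr3:92141780-92143470, at -0.08, 0.05, 0.32 and 0.06, at the level of background.

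Which regions differed between single arrays was described by size, without a test. To count as higher or lower, a region needed a mean log2 difference of 0.6 or more (1.52-fold) with the same sign in 75% or more of its probes. Few regions of the 3 clusters did: of 95, 2 differed between the lines at day -2 and 6 at day +2, while the days differed at 2 regions for control cells and at 3 for shRNA8 cells. Over the 4 comparisons these were 8 different regions, 2 in each keratin cluster and 4 in the epidermal differentiation complex (5.26%, 6.90% and 14.3%), against 8.58% of all regions.

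At day -2, 2 of the 95 regions were higher in shRNA8 cells than in control cells, 1 in the type I cluster and 1 in the epidermal differentiation complex, where 1.18% of all regions were higher. None was lower, where 1.25% of all regions were. The median difference, shRNA8 minus control, was -0.03, -0.08 and -0.18 in the type I, type II and epidermal clusters and 0.00 over all regions. More regions of the clusters lay below 0 (62 of 95) than of the whole array (8555 of 17452). Of the 28 regions of the epidermal differentiation complex 21 were below 0, and the median difference there was 0.01 in the IP channel and 0.22 in the input channel.

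At day +2, 1 region was higher in shRNA8 cells, in the type I cluster, where 1.4% of all regions were higher. There 5 regions were lower, 2 in the type II cluster and 3 in the epidermal differentiation complex, where 1.94% of all regions were lower. The median differences were -0.12, -0.09 and -0.24 in the 3 clusters and 0.02 over all regions, and 61 of 95 regions were below 0, against 8286 of 17452. Over the regions of a cluster the differences had an SD of 0.28, 0.32 and 0.39.

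Between day -2 and day +2 in control cells, 2 regions were higher, 1 in the type II cluster and 1 in the epidermal differentiation complex, where 0.986% of all regions were higher. None of the 95 was lower, against 1.11% of all regions. In shRNA8 cells none of the 95 was higher between the days, against 0.98% of all regions, and 3 were lower, 1 in each cluster, where 2.21% of all regions were lower. The median day change in the 3 clusters was -0.12, 0.03 and -0.04 in control cells and -0.16, -0.04 and 0.04 in shRNA8 cells. Each array enters a line comparison and a day comparison, so these comparisons share their arrays and are not independent of each other.

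**Figure D4:**
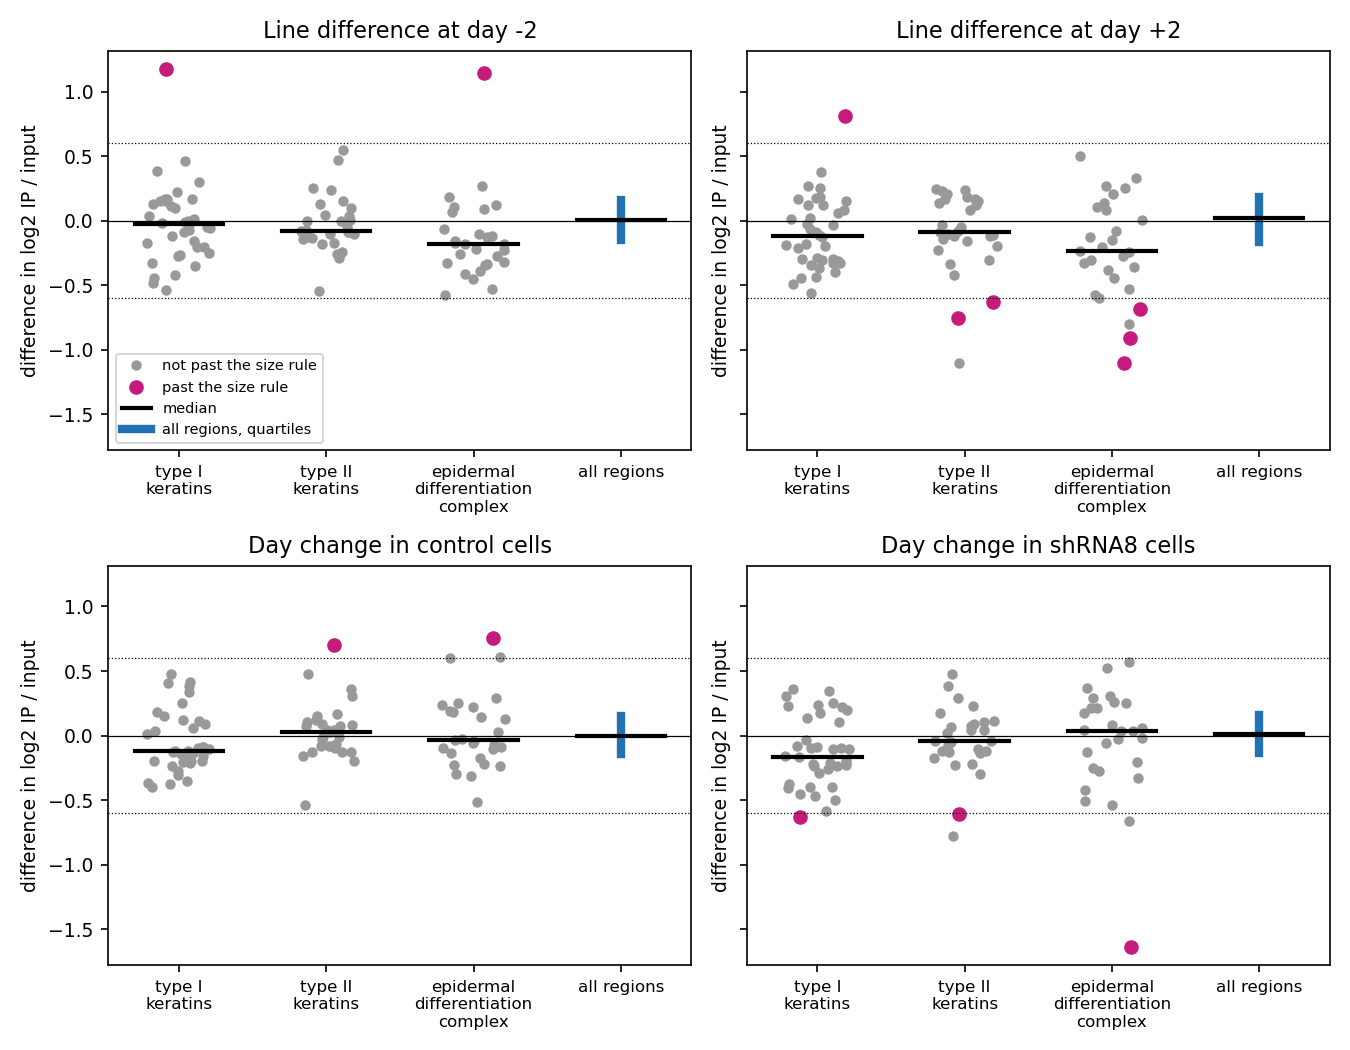
Difference in mean log2 ratio of each tested region (points) in the line comparisons at day -2 and day +2 and the day changes in control and shRNA8 cells, by cluster, with dotted lines at the size of 0.6 in either direction, black bars for medians and a blue bar for the quartiles of all regions on the array. Most of the 95 regions lie inside the dotted lines in each comparison, and coloured points mark those past the size rule.

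The differences lay mainly in the input channel. Over the regions of a cluster, the SD of the IP difference was 0.04 to 0.10 in each of the 4 comparisons, and that of the input difference 0.22 to 0.42. Measured in the IP channel alone, none of the 95 regions passed the rule of size and share of probes in any comparison, nor did any of the 17452 regions.

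That model (limma, with Benjamini-Hochberg adjustment over all 17452 regions) had 1 residual degree of freedom and takes the line difference to be the same at both days. For the line, 1 of the 95 regions was higher in shRNA8 cells at an adjusted p under 0.05, where 0.0344% of all regions were, and none was lower, against 0.178% of all regions. That region was chr11:99733490-99734405, with a difference of 0.99 and a limma adjusted p of 0.0287. At an unadjusted p under 0.05 there were 11 of 95 regions (11.6%), against 10.8% of all regions. For the day, none of the 95 regions passed, against 0.0516% of all regions, and the limma unadjusted p was under 0.05 in 6 of 95 (6.32%), against 7.9% of all. The days of a line are not replicate cultures, so the spread behind these p-values is the departure of the 4 arrays from additivity.

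The largest line difference at day -2 was at chr11:99733490-99734405 in the type I cluster, with 3 of its 6 probes kept. Its log2 ratio was -0.26 in control day -2, -0.35 in control day +2, 0.91 in shRNA8 day -2 and 0.46 in shRNA8 day +2. Both shRNA8 arrays were above both control arrays. The difference was 1.18 ± 0.60 (SD over 3 probes) at day -2 and 0.81 ± 0.39 at day +2. The IP channel differed by 0.10 and 0.15, and the input channel by -1.08 and -0.67. Its probe of 60 bases had an IP signal of 15.5, 16.3, 20.0 and 19.8 and an input of 7.8, 9.6, 5.2 and 5.7. Its probe of 56 bases had an IP signal of 74.5, 73.0, 95.2 and 93.7 and an input of 10.4, 10.98, 4.5 and 9.8. Its probe of 50 bases had an IP signal of 96.0, 81.5, 118.5 and 116 and an input of 12.4, 8.6, 11.4 and 11.5, and its ratio was higher in shRNA8 cells by 0.67 at day -2 and 0.44 at day +2. At the other 2 probes, but not at this one, the shRNA8 input was below the control input on both days.

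In the epidermal differentiation complex, chr3:93858581-93859588 had the largest difference in 3 comparisons, with 3 of its 7 probes kept. Its log2 ratio was -0.15, 0.45, 0.99 and -0.65 in control day -2, control day +2, shRNA8 day -2 and shRNA8 day +2. The line difference was 1.14 ± 0.11 at day -2 and -1.10 ± 0.40 at day +2, opposite in sign. The 3 probes moved alike in each of these comparisons. Between the days the ratio in shRNA8 cells fell by 1.64 ± 0.53, while the change of 0.60 ± 0.84 in control cells did not meet the share of probes. The IP channel stayed within 0.07 in the line comparisons and in the shRNA8 day change, and the input channel moved by -1.08, 1.05 and 1.52. For the first probe the IP signal was 35.9, 43.0, 48.2 and 46.1 and the input 5.9, 2.5, 4.0 and 8.5. The input was highest in shRNA8 day +2 at all 3 probes, reaching 21.8 at the last.

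**Figure D5:**
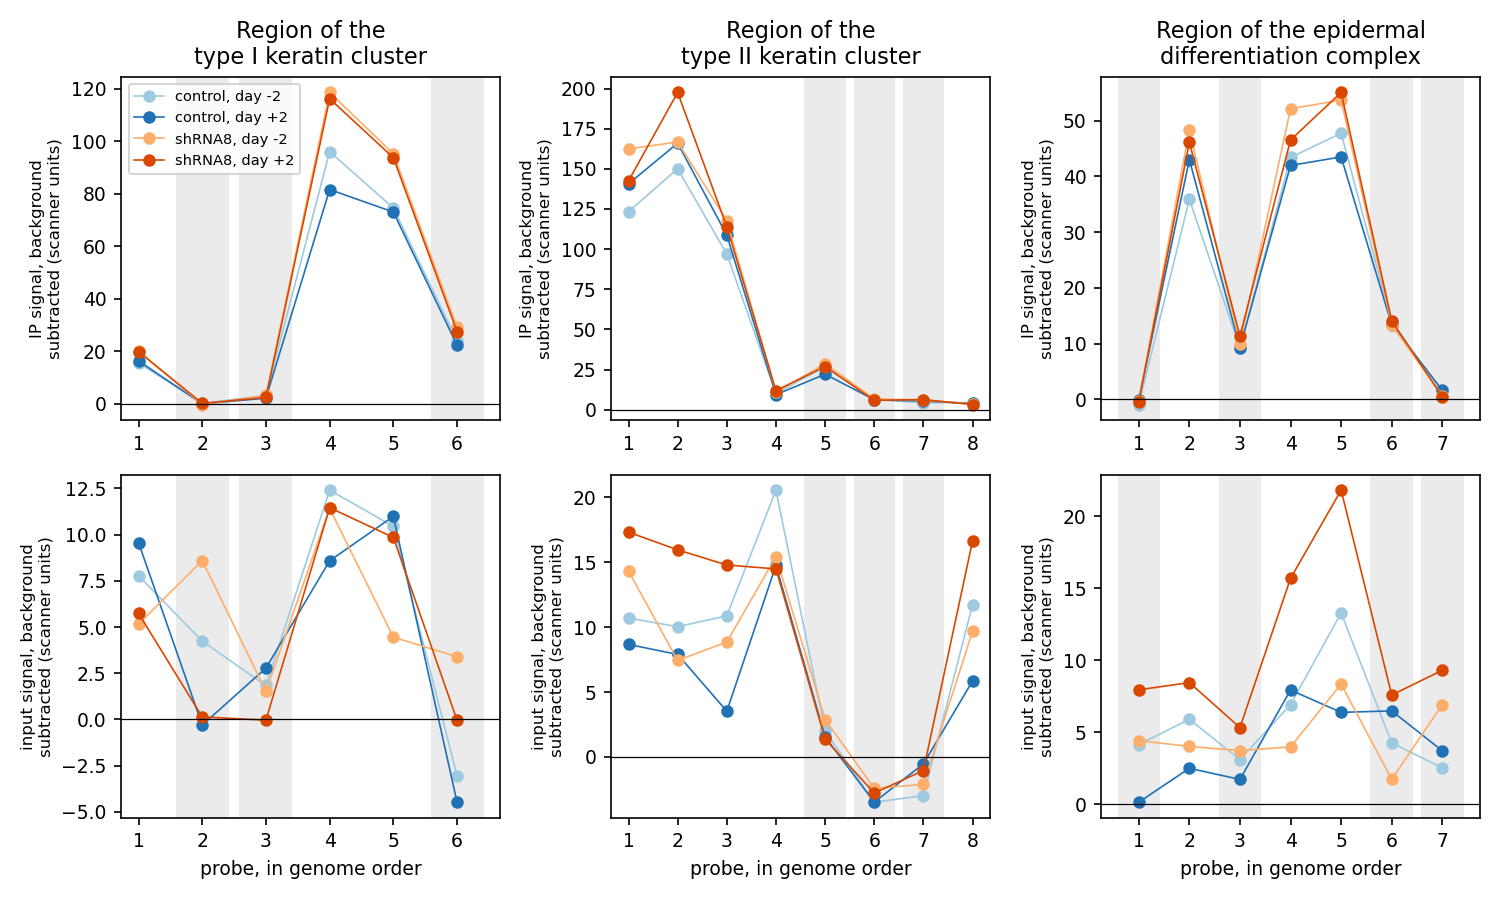
Background-subtracted IP signal (upper row) and input signal (lower row), in scanner units, of each probe in genome order, 1 line per array, for chr11:99733490-99734405 (left), chr15:101362761-101364357 (middle) and chr3:93858581-93859588 (right). Grey bands mark probes left out of the ratio; the IP profiles of the 4 arrays run close together, while the input profiles cross or separate within about 20 units of 0.

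The type II cluster had its largest counted changes at chr15:101362761-101364357, with 5 of 8 probes kept. The log2 ratio was -0.95, -0.25, -0.40 and -1.01 in the 4 arrays, and control day -2 and shRNA8 day +2 were the low arrays. It rose between the days by 0.70 ± 0.56 (SD over 5 probes) in control cells and fell by 0.61 ± 0.47 in shRNA8 cells. The line difference at day +2 was -0.76 ± 0.92. The IP channel moved by 0.02 and -0.01 between the days, and the input channel by -0.65 and 0.59. A mean difference of -1.10 at day +2, at chr15:101632270-101633334, did not meet the share of probes and rested on 1 spot. That probe of 45 bases, at chr15:101632690-101632734, had an input of 4.31, 2.52, 5.56 and 233 beside an IP signal of 11.003, 12.1, 16.1 and 11.8, so 1 array out of 4 was bright in input alone.

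The other regions past the size rule each passed in 1 comparison. In the type II cluster, chr15:101418566-101419215, at 1.41, 1.45, 0.87 and 0.82, was lower in shRNA8 cells at day +2, with a difference of -0.63 ± 0.52 over 3 probes. In the type I cluster, chr11:99654122-99655723, at 0.10, -0.01, 0.27 and -0.36, fell by 0.63 ± 0.73 between the days in shRNA8 cells. In both, the spread over probes was about as large as the difference.

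In the epidermal differentiation complex, the regions lower at day +2 in shRNA8 cells besides the one above were chr3:92188332-92189985 (-0.55, -0.26, -0.28 and -0.95) and chr3:92770219-92771111 (-1.55, -1.40, -1.78 and -2.31). Their differences were -0.69 ± 0.63 over 4 probes and -0.91 ± 1.10 over 3 probes. In the second, 1 kept probe had an IP signal below 0 in all 4 arrays and an input of 5.3, 3.2, 6.6 and 18.8. Without that probe the region was at -0.56, -0.58, -0.80 and -0.88, and its difference at day +2 was then under the size of 0.6. The region chr3:92631089-92631971 (-0.42, 0.34, -0.24 and -0.26) rose by 0.75 ± 0.57 between the days in control cells, with an IP change of -0.01 and an input change of -0.76. Control day +2 was the array that stood apart there.

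Brighter inputs gave a narrower spread. Of the kept probes of the clusters, 124 had a mean net input under 10, 269 one of 10 to 50 and 147 one of at least 50. The SD of the probe differences between the lines at day -2 was 0.72, 0.60 and 0.32 in these classes, against 0.75, 0.55 and 0.33 over all kept probes. At day +2 the SD of the brightest class was 0.64, and 0.36 without the probe at chr15:101632690-101632734.

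Among the 147 bright probes, 4 were lower in shRNA8 cells by at least 0.6 at both days, where 1.93% of all bright probes were, and none was higher, against 0.0583%. This class was set after the data were seen and on the same input channel. At chr3:92262813-92262857, in the epidermal differentiation complex, the net input was 72.3, 56.0, 305 and 240.2 in control day -2, control day +2, shRNA8 day -2 and shRNA8 day +2, beside an IP signal of 469.6, 452, 529 and 575. The differences in ratio were -1.71 at day -2 and -1.62 at day +2. At chr3:93599230-93599274 the input was 52.9, 54.9, 149 and 125 and the IP signal 234, 229, 276 and 261, with differences of -1.17 and -0.81. The probes were selected for a lower ratio in shRNA8 cells, so the direction of these values follows from the choice.

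The type I cluster had chr11:99677640-99677691, a probe of the region with that cluster's highest ratio. Its input was 93.5, 90.1, 239.9 and 208 and its IP signal 1274, 1273, 1509 and 1429, with differences of -0.88 and -0.69. At chr15:101699817-101699861 in the type II cluster the input was 107, 112, 229 and 359.7 and the IP signal 111, 108, 128 and 138, with differences of -0.70 and -1.30. In all 4 probes the shRNA8 arrays were brighter in both channels, and by more in the input. Whether sequence copies elsewhere in the genome add to these spots was not tested.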

How the data were processed

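Genomic DNA of 4 samples was measured on 1 two-colour Agilent array each. Spots were quantified by the authors with Feature Extraction (Agilent, version 11.0.1.1), and probe coordinates are mm9, per the file headers. The deposited intensity columns give each spot's median signal, background-subtracted signal and dye-normalized processed signal for both channels, and the deposited log10 ratio compares the processed signals. The submitters' processing notes name limma without its role.

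The log2 ratio of processed IP to processed input was computed for probes free of spot flags in all 4 arrays (174301 of 174638) and with input above background in all 4 (95060). Ratios were set to a median of 0 per array and quantile normalized. Kept probes were joined at gaps of up to 1000 bp, and a region needed 3 of them. Levels in intensity units used all probes of a cluster. With 1 array per group the precision of a difference between lines or days is not known. The SD given beside a difference is the spread over probes, which share an array and are not replicates. Regions counted were those past 0.6 (log2) with 75% of probes moving that way. Named regions were those past this rule in any comparison and the 2 highest and 2 lowest mean ratios per cluster, and the single spot at chr15:101632690-101632734 and the 4 bright probes were named after their values were seen. The clusters, lists and rules were chosen with earlier results of these data known. The region step and the additive fit were tested on simulated data. An additive limma fit of line and day on the region means, and a filter that also asks for IP above background, were added after the data were seen. Alternatives were median centring alone, within-array loess, the deposited log ratio, other background filters, no background subtraction, the IP channel alone, probes set against others of their length, and other rules for regions. Work was done in Python 3.11.15 with numpy 2.4.6, pandas 2.3.3 and matplotlib 3.10.9, and in R 4.3.3 with limma 3.58.1 for the loess and the additive fit.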

Additional observations from a re-analysis of the deposited data

Results flagged for a closer look

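At chr15:101362761-101364357, in the type II keratin cluster, the day change had opposite signs in the lines, 0.70 in control cells and -0.61 in shRNA8 cells, with both past the size rule. At chr3:93858581-93859588, in the epidermal differentiation complex, the line difference had opposite signs at the 2 days, 1.14 at day -2 and -1.10 at day +2. With 1 array per group neither contrast between these differences was tested. The input channel moved by 0.59 to 1.08 in these 4 comparisons and the IP channel by at most 0.07.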

How the results depend on the processing

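Of 180 values of the median differences under the alternatives, 160 kept their sign. Part of this count was fixed in advance. Other sizes and another share of probes cannot change these medians, and the deposited log ratio compares the same processed signals. The median line difference of the epidermal differentiation complex at day +2, -0.24, ranged from -0.2388 to -0.0137, the latter in the IP channel alone, and at day -2, -0.18, from -0.2606 to 0.0418, again in the IP channel alone. The counts of regions past the size rule and the levels of the clusters changed under several alternatives, among them those that handle near-background input differently. In the order line difference at day -2, line difference at day +2, day change in control cells and day change in shRNA8 cells, 2, 6, 2 and 3 of 95 regions were counted, where 2.43%, 3.34%, 2.09% and 3.19% of all regions were. Without background subtraction the counts were 0, 0, 0 and 0, against 0.0458%, 0.0802%, 0.00573% and 0.0516% of all regions. In the IP channel alone they were 0, 0, 0 and 0, and no region of the array passed. With input well above background, which left 36 regions, they were 1, 0, 0 and 0, against 0.422%, 0.959%, 0.358% and 1.00% of all regions. Without the background filter they were 1, 5, 1 and 5 of 151 regions, against 1.34%, 2.04%, 1.15% and 2.55% of all. Within-array loess gave 5, 8, 4 and 6 (5.26%, 8.42%, 4.21% and 6.32%), and the shares over all regions rose as well, to 5.27%, 6.60%, 5.29% and 5.50%. With IP above background too, the counts were 4, 5, 2 and 3 of 89 regions, against 2.30%, 3.09%, 2.00% and 2.96% of all. Probes set against the median of their length gave 3, 6, 2 and 5, against 2.40%, 3.31%, 2.10% and 3.04% of all regions. A minimum of 5 probes gave 0, 1, 1 and 2 of 41 regions, against 1.14%, 1.96%, 1.17% and 2.48% of all. A size of 1 gave 2, 1, 0 and 1, against 0.241%, 0.355%, 0.155% and 0.521% of all regions. A size of 0.4 gave 9, 11, 5 and 10, against 8.09%, 10.3%, 7.43% and 8.31% of all regions. Asking for 1 direction in all probes of a region gave 2, 5, 2 and 1, against 1.68%, 2.37%, 1.49% and 2.38% of all regions. The median of probes gave 3, 3, 0 and 3, against 1.98%, 2.95%, 1.80% and 2.65%. A gap of 500 bp gave 2, 3, 3 and 1 of 81 regions, against 2.33%, 3.38%, 2.25% and 3.35%. Median centring alone (2, 7, 2 and 3, against 2.56%, 3.51%, 2.35% and 2.96% of all regions) moved the counts little. The deposited log ratio left the counts (2, 6, 2 and 3) and shares unchanged. The mean level over the 4 arrays, 0.14, 0.22 and 0.05 for type I, type II and the epidermal differentiation complex, was -0.0361, 0.3707 and -0.6759 without the background filter. It was 0.2111, 0.2994 and -0.1466 for probes with input well above background and 0.1947, 0.2929 and -0.4722 without background subtraction. In the IP channel alone the type II level was 0.3052 and that of the epidermal differentiation complex -0.9800. Type I and type II levels were 0.2269 and 0.1858 under loess, and 0.1890 and 0.1664 against probes of their length. With input well above background, no probe was left at chr11:99733490-99734405 or at chr3:93858581-93859588, so neither has a value. At chr15:101362761-101364357, 1 probe was left. Its line difference at day +2 was 0.4438 and its day change in shRNA8 cells 0.0652, opposite in sign to the values above. At chr15:101418566-101419215 the line difference at day +2 was 0.0963 in the IP channel alone, also opposite. Of the other single-region values, 116 stayed past the size rule and 71 kept their direction only. Part was again fixed in advance. A size of 0.4 and the deposited log ratio lose no region, and a size of 1 drops smaller differences. The cause of the changes under the alternatives was not tested. The stricter filters also leave fewer probes and regions. The lines paired by day, with day as the replicate block in the additive limma fit, gave 1 region past an adjusted p of 0.05, and the days with line as the block gave 0. Signal over background limits these clusters as it does the rest of the array. Input was above background in 56.7% to 83.3% of their probes, depending on cluster and array, against 67.7% to 76.3% of the other probes. In every array type II was above the other probes and both other clusters were below them.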

Other observations

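In the epidermal differentiation complex, 2 pairs of regions had probes at the same offsets and of the same lengths. Of the 5 probes of chr3:92018457-92020022 and of chr3:92053269-92054834, 3 were bright and 2 dim. The bright probe of 45 bases at the second offset read 479.7 and 442 in control day -2, 484 and 431 in control day +2, and 496 and 554 in shRNA8 day -2. Over 12 values of the bright probes the log2 ratio of the first region to the second had a median size of 0.13 in the IP channel, with a range of -0.25 to 0.17, and of 0.35 in the input channel, with a range of -0.97 to 0.60. The dim probes agreed less, with the last at 4.70 and 1.69 in shRNA8 day +2. At chr3:93764745-93765484 and chr3:93876075-93876814, which shared 4 offsets, the probe of 48 bases read 16.9 and 14.1 in control day -2 and 19.1 and 20.8 in shRNA8 day -2. Whether the members of a pair share their probe sequence was not tested.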
